A study of Mus musculus with 28 samples.

Results

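The E2f transcription factors E2f1 to E2f8 and their DNA-binding partner Tfdp1 were followed across mouse thymocytes of 3 genotypes and 2 stages. They were taken as the rows of the deposited count table that carry these gene symbols, which gave 9 of the 24421 genes in the table. All 9 passed the filter on low counts, which kept 14371 genes. RNA sequencing was done on 28 libraries in 6 groups. The stages are DN2/3 and DN4, early double-negative thymocytes and the later ones they become, although the labels also name the cells CD4 T cells. Wild-type mice gave 4 libraries per stage. Mice with a transgene for Lmo2 (Lmo2tg), a T-cell leukemia oncogene, gave 5 per stage. Mice with the same transgene and a deletion of Ldb1, a LIM domain-binding cofactor of Lmo2, also gave 5 per stage and are called Ldb1-KO here, so that every Ldb1-KO library carries the transgene as well. The design text states 4 Ldb1-KO replicates, and the sample labels were followed. The labels name Lck-Cre, Rag1-Cre and IL-7Ra-Cre mice, Rosa26-EYFP-Cre reporter mice and C57BL/B6:CD45.1 congenic mice without tying them to groups. The sources used here do not give the line that deleted Ldb1, the promoter of the transgene or the ages.

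E2F proteins bind the promoters of genes for DNA synthesis and cell division. E2f1, E2f2 and E2f3 activate these genes when the retinoblastoma family of pocket proteins releases them, whereas E2f4 and E2f5 mostly act as repressors together with pocket proteins, and E2f6 represses through Polycomb complexes without binding them. E2f7 and E2f8 are atypical repressors that bind DNA without a Dp partner, are themselves induced by E2F and limit its output. The other E2Fs bind DNA as dimers with Tfdp1 or Tfdp2. In the thymus, cells divide rapidly after a functional T-cell receptor beta chain has been made, around the passage from DN3 to DN4.

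Promoters are printed first for the 4 members that had an E2F or cell-cycle element before their first RefSeq start. In the results that follow, every member with a promoter entry except E2f6 was higher in wild-type DN4 than in DN2/3. No link between motif and level can therefore be read from these 4. Each shows 250 bases before the RefSeq start (GRCm38.p6), 5′ to 3′ along the gene, with matches in capitals. The E2F motif was searched as TTTCCCGC, TTTCGCGC, TTTGCCGC or TTTGGCGC, and the cell cycle homology region, called CHR, as TTTGAA or TTCGAA. Both strands were read, and a match on the other strand appears as its reverse complement. A match is a description of the letters only. The E2f7 promoter (chr10:110745189-110745438, plus strand) held an E2F match at -198 to -191, counted from the start. The E2f8 promoter (chr7:48881597-48881846, minus strand) held a CHR match at -20 to -15 and no E2F match. The E2f3 promoter of the first RefSeq start (chr13:29986064-29986313, minus strand) held a CHR match at -23 to -18 and an E2F match at -11 to -4, which do not overlap. The Tfdp1 promoter of the first start (chr8:13338501-13338750, plus strand) held an E2F match at -43 to -36.
E2f7: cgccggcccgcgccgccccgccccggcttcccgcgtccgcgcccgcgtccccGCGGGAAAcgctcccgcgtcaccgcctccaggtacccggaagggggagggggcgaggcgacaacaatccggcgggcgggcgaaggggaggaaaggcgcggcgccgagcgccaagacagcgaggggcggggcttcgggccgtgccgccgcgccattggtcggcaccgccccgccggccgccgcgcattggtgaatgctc
E2f8: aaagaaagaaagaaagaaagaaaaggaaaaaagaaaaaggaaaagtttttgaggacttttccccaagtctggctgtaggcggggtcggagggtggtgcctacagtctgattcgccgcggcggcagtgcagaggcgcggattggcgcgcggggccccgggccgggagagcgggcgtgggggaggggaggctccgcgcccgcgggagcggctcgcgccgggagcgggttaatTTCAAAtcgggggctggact
E2f3: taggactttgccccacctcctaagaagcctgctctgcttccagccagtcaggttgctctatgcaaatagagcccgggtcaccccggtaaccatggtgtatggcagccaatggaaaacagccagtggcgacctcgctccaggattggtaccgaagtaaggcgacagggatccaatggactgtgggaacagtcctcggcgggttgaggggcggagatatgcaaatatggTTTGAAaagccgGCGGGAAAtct
Tfdp1: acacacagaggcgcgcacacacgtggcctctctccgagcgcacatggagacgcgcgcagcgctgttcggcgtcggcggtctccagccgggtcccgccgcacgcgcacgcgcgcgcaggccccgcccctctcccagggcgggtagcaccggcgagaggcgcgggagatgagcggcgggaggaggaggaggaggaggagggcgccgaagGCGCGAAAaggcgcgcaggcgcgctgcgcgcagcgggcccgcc

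Over windows of 250 bases before to 50 after the start, 2.26% of 32851 RefSeq promoters held an E2F match and 19.2% a CHR match. The E2f2 window of the first start held its E2F match after the start, at 40 to 47, and that of its second start a CHR match at -31 to -26. The E2f6 window and the window of the second E2f3 start held neither motif. The E2f1 window in the table lay 188 of its bases in coding sequence and 294 bases from the nearest GENCODE start, so no promoter is given for it. E2f4 and E2f5 are named only. Of the members, 7 of 9 had an entry in the promoter table.

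Per the mm10 annotation, E2f1 lies at chr2:154559407-154569892, E2f2 at chr4:136172394-136196057, E2f3 at chr13:29906575-29986063 and E2f4 at chr8:105297663-105305370. E2f5 lies at chr3:14578641-14606309, E2f6 at chr12:16810963-16839742 and E2f7 at chr10:110745439-110787384. E2f8 lies at chr7:48866429-48881596 and Tfdp1 at chr8:13338751-13378448. Exons of E2f8 were overlapped over 11.2% of their bases by Gm2788 on the opposite strand, and the sources used here do not state whether counting used strand. Of the stretches of 101 bases, the read length, in the transcripts, 7.41% of those of Tfdp1 were shared with Gm7390 and 5.47% of those of E2f8 with Gm2788, so a small part of these counts is uncertain. The other 7 members shared none.

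Library totals ran from 28.1 to 106.9 M counts. Lmo2 was 0.18 to 0.41 CPM (counts as a part per M of the library total) in wild-type DN2/3 and 28.2 to 37.5 in Lmo2tg DN2/3. Ldb1 was 6.11 to 54.7 CPM in Ldb1-KO DN4, against 247 to 428 in Lmo2tg DN4, and 57.1 to 120.0 CPM in Ldb1-KO DN2/3. Both genes therefore matched the labels, with Ldb1 transcripts left in the DN2/3 libraries. The 8 markers of thymocyte identity summed to between 3147 and 7211 CPM in the libraries. The labels give wild-type libraries names built differently from all transgenic ones, so a library series and the wild-type genotype cannot be told apart. The labels do not say that replicates are separate animals, and p-values here measure only the spread between samples, which may be technical. In sorted populations measured in bulk, fewer cells in cycle and less RNA per cell cannot be told apart.

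Levels between genes were compared as RPKM, which is CPM divided by the length of the gene's exons in kilobases. Tfdp1 and E2f4 ranked first or second in each of the 6 groups, with E2f2 next. In wild-type DN4, Tfdp1 stood at 153 ± 7.22 RPKM (SD, n = 4), E2f4 at 119 ± 12.6, E2f2 at 82.2 ± 10.7 and E2f1 at 45.0 ± 7.86. E2f8 stood at 36.1 ± 3.88, E2f3 at 18.6 ± 1.33 and E2f6 at 10.6 ± 0.91. E2f5 at 4.81 ± 0.64 and E2f7 at 1.55 ± 0.27 RPKM were lowest, as in each other group. The ranks of neighbours were not all separate: in wild-type DN4 the highest E2f8 library (40.1 RPKM) lay above the lowest E2f1 library (39.2 RPKM), and in wild-type DN2/3 the ranges of E2f4 (82.1 to 109.8) and Tfdp1 (81.9 to 95.2) overlapped.

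The make-up of the family differed between the stages in wild type. Libraries did not overlap for the shares of the activators, the pocket-bound repressors, the atypical repressors or E2f6. The E2f6 share was 4.45% to 5.55% in DN2/3 and 2.88% to 3.84% in DN4, while its level was 9.63 and 10.6 RPKM. In wild type the activators E2f1 to E2f3 took 35.5% ± 1.99 of the summed RPKM of the 8 E2f genes in DN2/3 and 45.8% ± 3.33 in DN4 (SD, n = 4). The share of E2f4 and E2f5 was 53.6% ± 2.03 in DN2/3 and 39.0% ± 3.34 in DN4. The atypical repressors E2f7 and E2f8 took 5.90% ± 0.15 and 11.8% ± 0.39, and nearly all of this was E2f8. In Lmo2tg the atypical share was 7.04% ± 1.84 in DN2/3 and 10.9% ± 1.91 in DN4 (n = 5), with overlapping ranges of 4.66% to 8.98% and 7.67% to 12.7%. The activator shares of Lmo2tg overlapped too, from 32.9% to 42.5% in DN2/3 and from 41.6% to 45.3% in DN4. In Ldb1-KO the atypical share was 8.16% in DN2/3 (7.12% to 10.8%) and 15.0% in DN4 (n = 5). Its DN4 libraries (12.32% to 18.2%) lay just above the wild-type DN4 libraries (11.3% to 12.25%). The atypical sum itself was 38.9 ± 4.11 RPKM in Ldb1-KO DN4 and 37.7 ± 3.90 in wild-type DN4 (SD). The sums of E2f4 and E2f5 (90.4 against 123.7 RPKM) and of the activators (122.8 against 145.8) were lower in Ldb1-KO DN4. These shares and sums were not tested.

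**Figure D1:**
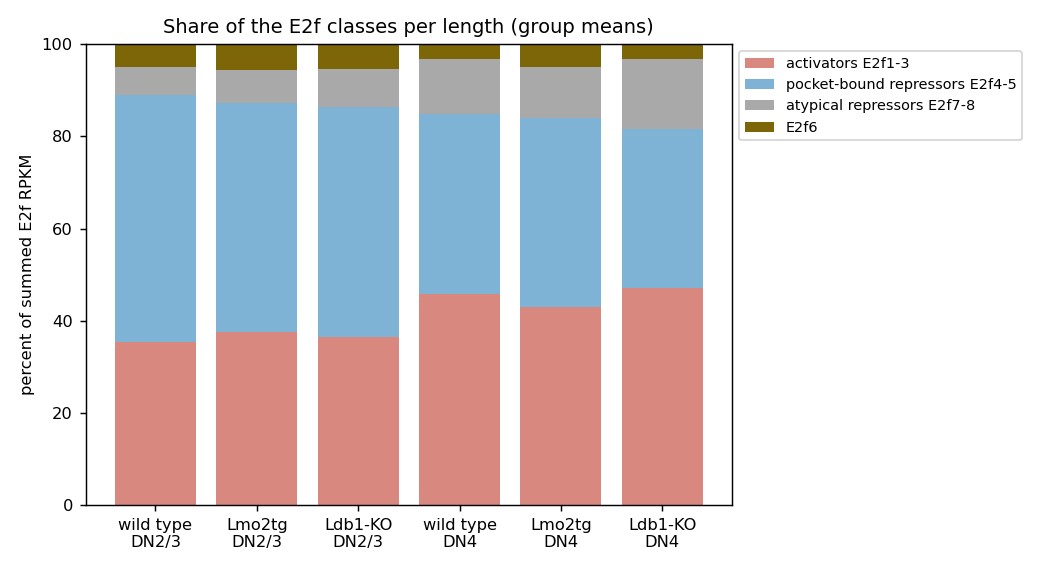
Share of each E2f class in the summed RPKM of E2f1 to E2f8 (y axis, percent), with 1 stacked bar of group means per group on the x axis. In wild type the activators went from 35.5% in DN2/3 to 45.8% in DN4 and E2f4-5 from 53.6% to 39.0%.

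Differences were tested with the quasi-likelihood F-test of edgeR on counts in a model of all 28 libraries. A gene was called at a p-value under 0.05 after Benjamini-Hochberg adjustment over the 14371 genes, and levels below are CPM scaled with TMM factors. Across the 6 groups, 7 of 9 members differed, all but E2f5 (edgeR adjusted p = 0.117) and E2f6 (edgeR adjusted p = 0.201), where 76.8% of all genes tested did. The widest spans of group means belonged to E2f8, 3.52-fold between its highest and lowest group, and E2f7, 3.18-fold. E2f2 spanned 2.62-fold and E2f1 2.56-fold. Tfdp1, E2f4 and E2f3 spanned 1.75-fold, 1.72-fold and 1.65-fold. E2f5 and E2f6 spanned 1.27-fold and 1.21-fold. Both had overlapping libraries between every neighbouring pair of groups in their order, as had E2f4.

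**Figure D2:**
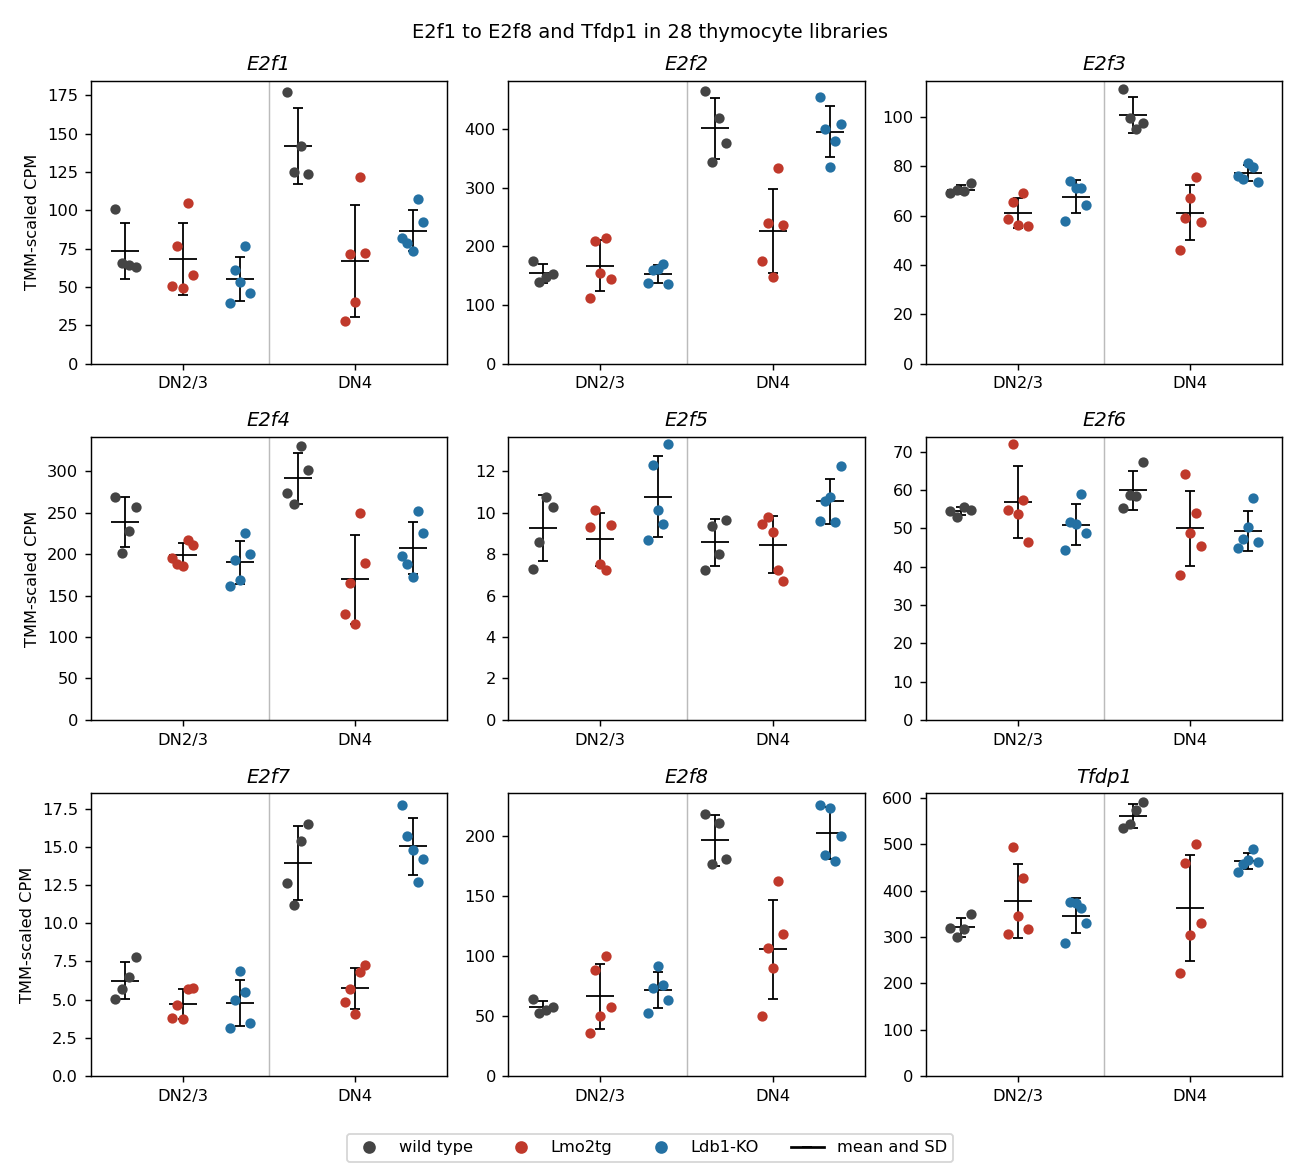
TMM-scaled CPM (y axis) of each member in the 28 libraries (points), by stage on the x axis and genotype by colour, with the mean and SD of each group. Wild-type DN4 libraries of E2f1, E2f2, E2f3, E2f4, E2f7, E2f8 and Tfdp1 lie above the Lmo2tg DN4 libraries, and the E2f1 points of Lmo2tg DN4 run from 28.2 to 122 CPM.

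In wild type, 6 of 9 members were higher in DN4 than in DN2/3 and 0 were lower: E2f1, E2f2, E2f3, E2f7, E2f8 and Tfdp1. Of all genes tested, 21.1% were higher, 24.8% lower and 46% called in either direction. The libraries of these 6 members did not overlap between the stages, which held for 54.2% of all genes. The median log2 fold change was 0.80 over the 9 members and -0.06 over all genes. Both atypical repressors, all activators and the Dp partner thus stood among the genes that were higher, while E2f4, E2f5 and E2f6 were not called.

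Most of the family was lower in Lmo2tg than in wild type at DN4, and no member was called at DN2/3. At DN4, 7 of 9 members were lower in Lmo2tg than in wild type and 0 were higher, all but E2f5 and E2f6, where 23.5% of all genes were lower, 28.9% higher and 52.4% called in either direction. The libraries of these 7 genes did not overlap between the groups, which held for 30% of all genes. The median log2 fold change was -0.78 over the members and 0.07 over all genes. At DN2/3, edgeR called 0 of 9 members, where 15.1% of all genes were higher, 14.4% lower and 29.5% called in either direction. There 0 members passed an unadjusted p of 0.05 in edgeR, against 38.8% of all genes, and DESeq2 called 0. With upper-quartile scaling E2f3 was lower at DN2/3 (log2 fold change -0.27, edgeR adjusted p = 0.0425) and E2f6 at DN4 (-0.28, edgeR adjusted p = 0.0488).

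In Ldb1-KO DN4, 4 of 9 members were higher than in Lmo2tg DN4 and 0 were lower: E2f2, E2f3, E2f7 and E2f8. Of all genes, 5.85% were higher, 8.71% lower and 14.6% called in either direction. The median log2 fold change was 0.35 over the members and -0.02 over all genes. With only these groups in the model, E2f3 (edgeR adjusted p = 0.171) and E2f8 (edgeR adjusted p = 0.0515) were not called, and calls over all genes went from 2092 to 681. At DN2/3, edgeR called 0 of 9 members between Ldb1-KO and Lmo2tg, where 8.87% of all genes were higher, 7.22% lower and 16.1% called in either direction. There 0 members passed an unadjusted p of 0.05, against 28.3% of all genes, and DESeq2 called 0. Ldb1 RNA was left at 0.25 of the Lmo2tg level in Ldb1-KO DN2/3, against 0.074 in Ldb1-KO DN4. The Lmo2tg libraries enter both this comparison and that with wild type, so their values are shared.

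Against wild type, 2 of 9 members were lower in Ldb1-KO DN4, E2f3 and E2f4, and 0 were higher, where 14.4% of all genes were lower, 18.2% higher and 32.6% called in either direction. The libraries of E2f1, E2f3, E2f4 and Tfdp1 did not overlap between these groups, which held for 33.1% of all genes. At DN2/3, edgeR called 0 of 9, where 6.98% of all genes were higher, 2.58% lower and 9.56% called in either direction. E2f4 alone passed an unadjusted p of 0.05 there (log2 fold change -0.33, 95% interval -0.66 to -0.00155), as did 25.3% of all genes, and DESeq2 called 0. With only wild type and Ldb1-KO of DN4 in the model, E2f1, E2f6 and Tfdp1 were lower as well.

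**Figure D3:**
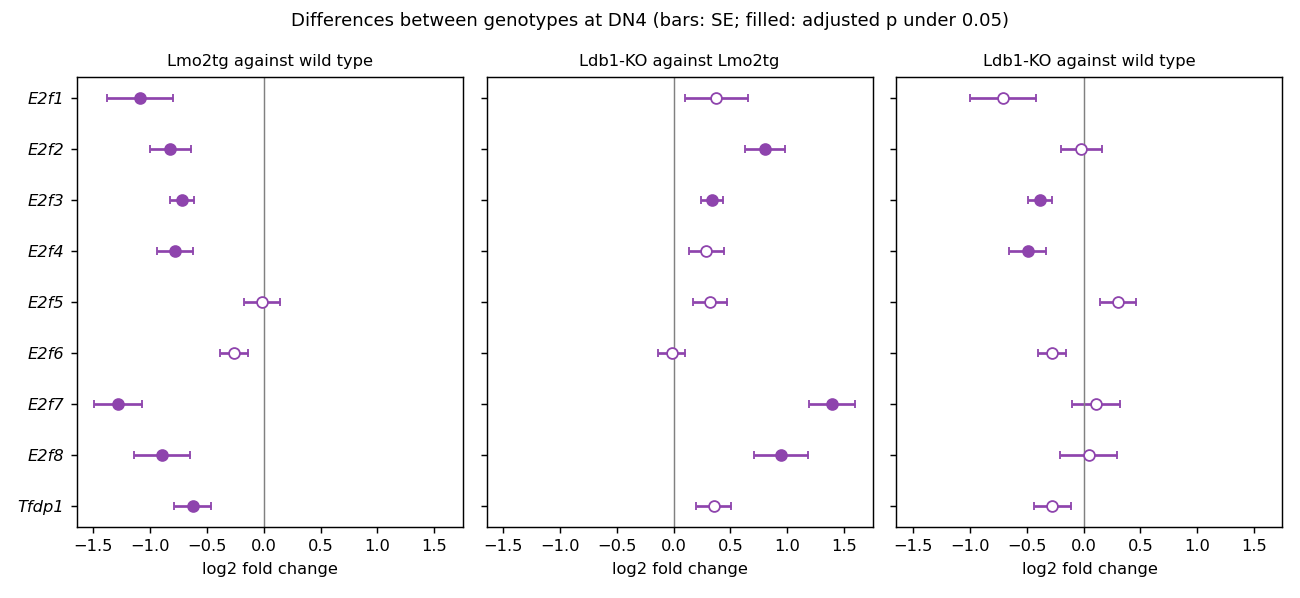
Log2 fold changes (x axis) of the 9 members (y axis) between genotypes at DN4, with bars for the SE and filled points for adjusted p under 0.05. In the panel of Lmo2tg against wild type, 7 points are filled and left of 0, and in that of Ldb1-KO against Lmo2tg, 4 are filled and right of 0.

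Among the activators, E2f1 stood at 101, 65.5, 64.5 and 63.0 CPM in wild-type DN2/3 (replicates 1 to 4) and at 177, 125, 142 and 124 CPM in wild-type DN4. Replicate 1 was high at both stages, and the stages did not overlap. E2f1 was 1.93-fold higher in DN4 (log2 fold change 0.95 ± 0.31 SE, edgeR adjusted p = 0.0143), in 4 of 4 same-numbered pairs. Without replicate 1 of wild-type DN2/3 the log2 fold change was 1.14 (edgeR adjusted p = 0.00849).

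In Lmo2tg, E2f1 stood at 50.8, 77.0, 49.6, 105 and 57.7 CPM in DN2/3 and at 28.2, 71.5, 40.3, 122 and 72.4 CPM in DN4. The DN4 libraries were far apart, with replicate 1 lowest and replicate 4 highest, and each lay below the lowest wild-type DN4 library. The log2 fold change against wild type at DN4 was -1.09 ± 0.29 (SE, edgeR adjusted p = 0.00324), or 0.47 of the wild-type level. In Ldb1-KO DN4, E2f1 stood at 81.7, 78.9, 73.4, 107 and 92.4 CPM. These values sat inside the Lmo2tg range and under every wild-type value. E2f1 was called against neither Lmo2tg (0.37 ± 0.28, edgeR adjusted p = 0.416) nor wild type (-0.71 ± 0.29, edgeR adjusted p = 0.0604). With DESeq2 (adjusted p = 0.0383), with only the compared groups (edgeR adjusted p = 0.00129) and without replicate 4 of Ldb1-KO DN4 (edgeR adjusted p = 0.0477) it was lower than in wild type.

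E2f2, the most abundant activator per length, stood at 176, 139, 148 and 153 CPM in wild-type DN2/3 and at 465, 344, 420 and 377 CPM in wild-type DN4. All 4 pairs were higher in DN4, by 2.60-fold (log2 fold change 1.38 ± 0.19 SE, edgeR adjusted p = 6.126e-06). In Lmo2tg DN4, E2f2 stood at 176, 240.1, 149, 333 and 237 CPM. Every value lay below the wild-type DN4 libraries, and replicate 4 came closest. The log2 fold change was -0.82 ± 0.18 (SE, edgeR adjusted p = 0.000609). In Ldb1-KO DN4, E2f2 stood at 455, 400.1, 335, 380.2 and 409 CPM. These libraries lay above each Lmo2tg DN4 library and overlapped the wild-type ones. E2f2 was 1.75-fold higher than in Lmo2tg (log2 fold change 0.80 ± 0.17 SE, edgeR adjusted p = 0.00216), and against wild type the log2 difference was -0.02 (95% interval -0.39 to 0.35).

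E2f3 stood at 69.2, 70.2, 69.8 and 73.0 CPM in wild-type DN2/3 and at 111, 99.5, 94.9 and 97.7 CPM in wild-type DN4. The wild-type libraries were close together within each stage, and the stages did not overlap. E2f3 was 1.43-fold higher in DN4 (log2 fold change 0.52 ± 0.11 SE, edgeR adjusted p = 0.000517). In Lmo2tg DN4 it stood at 46.3, 59.0, 67.3, 75.7 and 57.6 CPM, and in Ldb1-KO DN4 at 76.2, 75.0, 81.4, 79.8 and 73.8 CPM. Ldb1-KO therefore lay between the others, with some overlap with Lmo2tg and none with wild type.

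For E2f3 the DN4 log2 fold change was -0.72 ± 0.10 in Lmo2tg against wild type (SE, edgeR adjusted p = 5.316e-06) and -0.39 ± 0.10 in Ldb1-KO against wild type (SE, edgeR adjusted p = 0.00771). Against Lmo2tg, E2f3 was 1.26-fold higher in Ldb1-KO (0.34 ± 0.10 SE, edgeR adjusted p = 0.0209). That call was lost without replicate 1 (edgeR adjusted p = 0.0639) or replicate 5 (edgeR adjusted p = 0.0513) of Lmo2tg DN4. At DN2/3 the E2f3 libraries of Lmo2tg (55.6 to 69.0 CPM) lay just below those of wild type (69.2 to 73.0) without overlap, as for 28.4% of all genes, and the difference was not called (-0.21, edgeR adjusted p = 0.134).

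E2f4, the pocket-bound repressor with by far the higher level, stood at 269, 201, 228 and 257 CPM in wild-type DN2/3 and at 274, 260.1, 330.3 and 301 CPM in wild-type DN4. The stages overlapped, and the difference was not called (log2 fold change 0.29 ± 0.17 SE, edgeR adjusted p = 0.170). With same-numbered libraries as pairs it was called (0.29 ± 0.12 SE, edgeR adjusted p = 0.0400), where 62.1% of all genes were, as with only the 2 wild-type groups in the model (0.32, edgeR adjusted p = 0.0177). In Lmo2tg DN4, E2f4 stood at 128, 165, 116, 249.7 and 189 CPM, and in Ldb1-KO DN4 at 198, 188, 172, 252 and 225 CPM. Replicate 4 was highest in both of these groups, and neither group overlapped wild-type DN4.

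At DN4, E2f4 was lower than in wild type in Lmo2tg (log2 fold change -0.78 ± 0.16 SE, edgeR adjusted p = 0.000316) and in Ldb1-KO (-0.49 ± 0.16 SE, edgeR adjusted p = 0.0220). The second call was lost without replicate 3 of wild-type DN4 (edgeR adjusted p = 0.0699), or without replicate 2 (edgeR adjusted p = 0.0523) or replicate 3 (edgeR adjusted p = 0.0599) of Ldb1-KO DN4. The difference between Ldb1-KO and Lmo2tg was 0.29 ± 0.15 (SE, edgeR adjusted p = 0.226). Without replicate 4 of Lmo2tg DN4 it was 0.47 (edgeR adjusted p = 0.0154).

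E2f5, the other pocket-bound repressor, was low throughout, between 6.71 and 13.3 CPM in the 28 libraries. No contrast called it in edgeR. The interval of its log2 difference between Lmo2tg and wild type at DN4 ran from -0.34 to 0.31. Its 2 highest group means were the Ldb1-KO ones, 10.8 ± 1.95 CPM in DN2/3 and 10.5 ± 1.10 CPM in DN4 (SD, n = 5), against 8.46 to 9.24 in the other 4 groups. The groups overlapped, and the log2 difference from Lmo2tg was 0.30 in DN2/3 (edgeR adjusted p = 0.180) and 0.32 in DN4 (edgeR adjusted p = 0.170).

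E2f6, the Polycomb-linked repressor, was the steadiest member, between 37.7 and 72.1 CPM in the 28 libraries. Its wild-type values were 54.6, 53.0, 55.5 and 54.9 CPM in DN2/3 and 55.2, 58.7, 58.6 and 67.3 CPM in DN4. The highest DN4 library was replicate 4, and the groups overlapped at 55.2 to 55.5 CPM. In Lmo2tg DN4, E2f6 stood at 37.7, 64.2, 48.8, 53.9 and 45.4 CPM. The log2 difference from wild type was -0.26 ± 0.12 (SE, edgeR adjusted p = 0.0811). Without replicate 2 of Lmo2tg DN4 it was -0.37 (edgeR adjusted p = 0.0132). In Ldb1-KO DN4 the difference from wild type was -0.28 ± 0.12 (SE, edgeR adjusted p = 0.0862), and it was called without replicate 4 of Ldb1-KO DN4 (-0.34, edgeR adjusted p = 0.0410) and with only the compared groups (edgeR adjusted p = 0.0293).

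E2f7, the first atypical repressor, had the lowest level of the members but one of the clearest patterns. It stood at 5.02, 5.69, 6.49 and 7.80 CPM in wild-type DN2/3 and at 12.7, 11.2, 15.4 and 16.5 CPM in wild-type DN4. In Lmo2tg DN4 it stood at 4.84, 5.68, 4.07, 6.80 and 7.29 CPM. The Lmo2tg DN4 libraries thus lay clear of wild-type DN4, 3 of them within the range of wild-type DN2/3 and 2 below it. In Ldb1-KO, E2f7 stood at 3.17, 4.97, 6.88, 5.48 and 3.50 CPM in DN2/3 and at 17.8, 15.7, 14.8, 12.7 and 14.2 CPM in DN4. Ldb1-KO DN4 did not overlap Lmo2tg DN4, as for 7.13% of all genes, and overlapped wild-type DN4.

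The log2 fold change of E2f7 at DN4 was -1.28 ± 0.21 in Lmo2tg against wild type (SE, edgeR adjusted p = 3.109e-05). It was 1.39 ± 0.20 in Ldb1-KO against Lmo2tg (SE, edgeR adjusted p = 3.547e-05), a 2.63-fold higher level and the largest difference of the 9 members in that comparison. Against wild type the Ldb1-KO difference was 0.11 (95% interval -0.32 to 0.55). From DN2/3 to DN4, E2f7 rose 2.23-fold in wild type (edgeR adjusted p = 0.000222) and 3.13-fold in Ldb1-KO (edgeR adjusted p = 2.418e-06). In Lmo2tg all 5 pairs were higher in DN4 by 0.113 to 0.345 on the log2 scale, and the difference was not called (0.28 ± 0.20 SE, edgeR adjusted p = 0.372).

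E2f8 followed a similar course at a higher level. It stood at 64.4, 52.5, 55.3 and 58.0 CPM in wild-type DN2/3 and at 218, 177, 211 and 181 CPM in wild-type DN4. In Lmo2tg it stood at 36.2, 88.9, 49.9, 99.95 and 57.6 CPM in DN2/3 and at 50.1, 106, 89.8, 163 and 119 CPM in DN4. Replicate 1 was lowest and replicate 4 highest at both stages, and each Lmo2tg DN4 library lay below wild-type DN4. In Ldb1-KO DN4, E2f8 stood at 226, 184, 224, 180 and 200.3 CPM. These libraries overlapped wild-type DN4 and lay above all Lmo2tg libraries.

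E2f8 showed the largest stage difference of the members in wild type, 3.42-fold (log2 fold change 1.77 ± 0.27 SE, edgeR adjusted p = 1.631e-05). At DN4 the log2 fold change was -0.90 ± 0.25 in Lmo2tg against wild type (SE, edgeR adjusted p = 0.00417) and 0.94 ± 0.24 in Ldb1-KO against Lmo2tg (SE, edgeR adjusted p = 0.00784). Between Ldb1-KO and wild type it was 0.04 (95% interval -0.47 to 0.56). Whether reads of the overlapping Gm2788 are part of these counts was not tested.

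Tfdp1, the Dp partner, stood at 319, 301, 317 and 349 CPM in wild-type DN2/3 and at 535, 544, 575 and 592 CPM in wild-type DN4. The stages were far apart, and the level was 1.75-fold higher in DN4 (log2 fold change 0.80 ± 0.17 SE, edgeR adjusted p = 0.000562). In Lmo2tg DN4, Tfdp1 stood at 223, 459, 304, 501 and 330.1 CPM, and in Ldb1-KO DN4 at 441, 459, 467, 491 and 463 CPM. The Lmo2tg libraries were spread widely, the Ldb1-KO libraries were close together, and both groups lay below wild type.

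The DN4 log2 fold change of Tfdp1 was -0.63 ± 0.16 in Lmo2tg against wild type (SE, edgeR adjusted p = 0.00247). It was -0.27 ± 0.16 in Ldb1-KO against wild type (SE, edgeR adjusted p = 0.196), and with only the compared groups that difference was called (edgeR adjusted p = 0.00496). Against Lmo2tg it was 0.35 ± 0.15 (SE, edgeR adjusted p = 0.132), and it was called without replicate 4 of Lmo2tg DN4 (0.50, edgeR adjusted p = 0.0194). The other Dp gene, Tfdp2, went the opposite way in wild type. Tfdp2 stood at 86.2 ± 11.9 CPM in DN2/3 and 61.4 ± 16.6 CPM in DN4 (SD, n = 4; log2 fold change -0.49 ± 0.16 SE, edgeR adjusted p = 0.0160). Per length, Tfdp2 was at 4.38 ± 1.19 RPKM in wild-type DN4 against 153 for Tfdp1.

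The stage comparison was repeated in the transgenic genotypes, where same-numbered libraries of a genotype also deviated together. In Lmo2tg, edgeR called 0 of 9 members between DN4 and DN2/3, where 8.32% of all genes were higher, 7.04% lower and 15.4% called in either direction. The stages overlapped for all 9 members, and did not for 4.48% of all genes. E2f2 (log2 fold change 0.44 ± 0.17 SE, edgeR adjusted p = 0.0826) and E2f8 (0.67 ± 0.24 SE, edgeR adjusted p = 0.0565) passed an unadjusted p of 0.05, as did 29% of all genes. DESeq2 called both (adjusted p = 0.0471 and 0.0274). With same-numbered libraries as pairs, 4 of 9 members were called, where 38.8% of all genes were: E2f2 (0.43, edgeR adjusted p = 0.00658) and E2f8 (0.66, edgeR adjusted p = 0.000572) higher in DN4, E2f4 (-0.29, edgeR adjusted p = 0.0411) and E2f6 (-0.19, edgeR adjusted p = 0.0291) lower. E2f8 was also called with RLE scaling (edgeR adjusted p = 0.0485) and without DN2/3 replicate 2 or 4 or DN4 replicate 1 (edgeR adjusted p = 0.0259, 0.0181 and 0.0109). E2f2 was called without DN2/3 replicate 2 or 4 or DN4 replicate 3 (edgeR adjusted p = 0.0361, 0.0427 and 0.0231), and E2f4 without DN4 replicate 4 (edgeR adjusted p = 0.0269).

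In Ldb1-KO, 4 of 9 members were higher in DN4, E2f2, E2f7, E2f8 and Tfdp1, and 0 were lower, where 12.3% of all genes were higher, 15.8% lower and 28.1% called in either direction. The libraries of these 4 did not overlap between stages, which held for 23.7% of all genes. E2f2 stood at 138, 160.4, 162, 169.5 and 135 CPM in Ldb1-KO DN2/3 and rose 2.59-fold (log2 fold change 1.37 ± 0.17 SE, edgeR adjusted p = 3.003e-06). E2f8 stood there at 52.3, 73.9, 92.2, 76.3 and 63.3 CPM and rose 2.83-fold (1.502 ± 0.24 SE, edgeR adjusted p = 5.141e-05). For both genes every DN4 library lay above every DN2/3 library. Tfdp1 rose 1.34-fold (0.42 ± 0.15 SE, edgeR adjusted p = 0.0414), and this call was lost without any of 8 of the 10 libraries, DN2/3 replicates 1, 4 and 5 and DN4 replicates 1 to 5 (edgeR adjusted p between 0.0536 and 0.115). All 5 Tfdp1 pairs were higher in DN4, by 0.29 to 0.61 on the log2 scale.

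E2f1 in Ldb1-KO was higher in DN4 in 5 of 5 pairs, by 0.36 to 1.05 on the log2 scale, and was not called (0.65 ± 0.28 SE, edgeR adjusted p = 0.0827). With the pairs in the model E2f1 was called (0.67 ± 0.14 SE, edgeR adjusted p = 0.000868), as was E2f3 (0.20 ± 0.08 SE, edgeR adjusted p = 0.0486), where 48.2% of all genes were. E2f1 was called too with only the 2 Ldb1-KO groups (edgeR adjusted p = 0.00962) and without replicate 4 of Ldb1-KO DN2/3 (edgeR adjusted p = 0.0479).

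**Figure D4:**
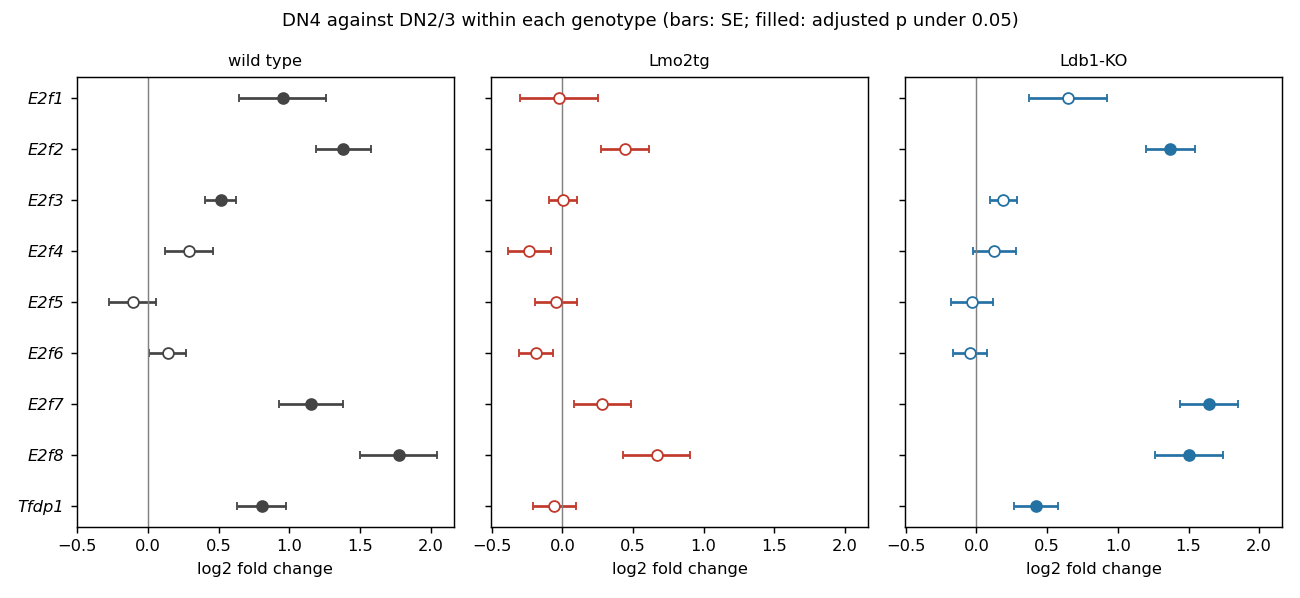
Log2 fold changes between DN4 and DN2/3 (x axis) of the 9 members (y axis) in each genotype, with bars for the SE and filled points for adjusted p under 0.05 in the model without pairs. There are 6 filled points in wild type, 0 in Lmo2tg and 4 in Ldb1-KO.

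Whether the Lmo2tg effect itself differed between stages was tested as the DN4 effect minus the DN2/3 effect. For 5 of 9 members the difference was negative and called, and for 0 it was positive, where 11% of all genes were negative, 14.7% positive and 25.6% called in either direction. These were E2f8 (-1.11 ± 0.35 SE, edgeR adjusted p = 0.0261), E2f2 (-0.94 ± 0.26 SE, edgeR adjusted p = 0.0121), E2f7 (-0.87 ± 0.30 SE, edgeR adjusted p = 0.0363), Tfdp1 (-0.86 ± 0.23 SE, edgeR adjusted p = 0.0106) and E2f3 (-0.51 ± 0.15 SE, edgeR adjusted p = 0.0154). E2f7 lost its call without any of 10 of the 18 libraries: wild-type DN2/3 replicates 1, 2 and 3, wild-type DN4 replicates 3 and 4, Lmo2tg DN2/3 replicates 2, 4 and 5, and Lmo2tg DN4 replicates 1 and 3 (edgeR adjusted p between 0.0504 and 0.0726). E2f8 lost it without wild-type DN2/3 replicate 2 or Lmo2tg DN2/3 replicate 2 or 4 (edgeR adjusted p = 0.0546, 0.0548 and 0.0589), and both lost it with only the 4 compared groups (edgeR adjusted p = 0.0505 for E2f7 and 0.0591 for E2f8).

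For E2f1 this difference between stages was -0.98 ± 0.41 (SE, edgeR adjusted p = 0.0794), and for E2f4 -0.52 ± 0.23 (SE, edgeR adjusted p = 0.0888). With the pairs within each genotype in the model, 8 of 9 members were called, where 49.4% of all genes were, with E2f1 (-1.11, edgeR adjusted p = 0.000460), E2f4 (-0.58, edgeR adjusted p = 0.00648) and E2f6 (-0.33, edgeR adjusted p = 0.0118) added. E2f1 and E2f4 were called as well without replicate 4 of Lmo2tg DN4 (edgeR adjusted p = 0.00770 and 0.00689). E2f1 was also called without replicate 1 of wild-type DN2/3 (edgeR adjusted p = 0.0477).

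The effect of Ldb1 deletion in transgenic cells differed between stages for E2f7, by 1.36 ± 0.29 on the log2 scale (SE, edgeR adjusted p = 0.0107). It was 0.03 at DN2/3 and 1.39 at DN4. E2f7 was thus 1 of 9 members called, and it was positive, where 0.132% of all genes were positive, 1.22% negative and 1.36% called in either direction. E2f2 came next (0.93 ± 0.24 SE, edgeR adjusted p = 0.0515). It was called by DESeq2 (adjusted p = 0.0140) and without Lmo2tg DN2/3 replicate 1 or 5, Lmo2tg DN4 replicate 4 or Ldb1-KO DN4 replicate 3 (edgeR adjusted p = 0.0190, 0.0492, 0.00411 and 0.0444). With the pairs in the model 5 of 9 members were called, where 13.5% of all genes were. They were E2f7 with E2f1 (0.81, edgeR adjusted p = 0.0151), E2f2 (0.94, edgeR adjusted p = 0.00189), E2f8 (0.86, edgeR adjusted p = 0.00492) and Tfdp1 (0.52, edgeR adjusted p = 0.00707). Ldb1 RNA stood at 0.25 of the Lmo2tg level in Ldb1-KO DN2/3 and at 0.074 in Ldb1-KO DN4. Stage and the extent of Ldb1 loss therefore cannot be told apart in these differences.

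Between Ldb1-KO and wild type the stage changes differed for 0 of 9 members in edgeR, where 0.181% of all genes were positive, 0.0348% negative and 0.216% called in either direction. E2f3 alone passed an unadjusted p of 0.05 (-0.33 ± 0.15 SE, edgeR adjusted p = 0.313), as did 14.3% of all genes, and DESeq2 called 0. With only these 4 groups in the model, E2f3 (edgeR adjusted p = 0.0444) and Tfdp1 (-0.38, edgeR adjusted p = 0.0265) were called, and with the pairs Tfdp1 was (-0.38, edgeR adjusted p = 0.0328), where 19.6% of all genes were.

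The 3 pocket protein genes, whose products hold the E2Fs, went in both directions in Lmo2tg DN4. In Lmo2tg DN4, Rbl2 stood at 106 ± 34.3 CPM against 52.0 ± 5.26 in wild type and was higher (log2 fold change 1.03 ± 0.17 SE, edgeR adjusted p = 2.6e-05). Rb1 was also higher there (0.64 ± 0.20 SE, edgeR adjusted p = 0.00873), while Rbl1, itself an E2F target, was lower (-0.42 ± 0.14 SE, edgeR adjusted p = 0.0179). In wild type Rbl1 (0.74 ± 0.15 SE, edgeR adjusted p = 0.000396) and Rb1 (0.86 ± 0.21 SE, edgeR adjusted p = 0.00156) rose from DN2/3 to DN4. In Ldb1-KO DN4, Rb1 (1.01 ± 0.20 SE, edgeR adjusted p = 0.00082) and Rbl2 (0.64 ± 0.17 SE, edgeR adjusted p = 0.00663) were higher than in wild type. Between Ldb1-KO and Lmo2tg at DN4 they stood at 0.39 for Rbl1, 0.37 for Rb1 and -0.40 for Rbl2 (edgeR adjusted p = 0.0557, 0.192 and 0.0904). Exons of Rbl2 and Rb1 are overlapped on the opposite strand over 21% and 14.9% of their bases.

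Genes that E2F is known to drive in DNA replication were described as a list of 28. For the counts of this and the next lists, 21.1% of all genes were higher and 24.8% lower in wild-type DN4 than in DN2/3. At DN4, 28.9% were higher and 23.5% lower in Lmo2tg than in wild type. In Ldb1-KO DN4, 5.85% were higher and 8.71% lower than in Lmo2tg, and 18.2% higher and 14.4% lower than in wild type. From DN2/3 to DN4 in Ldb1-KO, 12.3% were higher and 15.8% lower. In wild type 27 of 28 were higher in DN4 (median log2 fold change 1.08 over the list, -0.06 over all genes). In Lmo2tg DN4, 24 of 28 were lower than in wild type and 0 were higher (median -0.78). Rrm2, a subunit of ribonucleotide reductase, stood at 707 ± 25.6 CPM in wild-type DN4, 387 ± 124 in Lmo2tg DN4 and 724 ± 41.4 in Ldb1-KO DN4 (SD, n = 4 for wild type and n = 5 for the others, as in the means that follow), and Tyms, thymidylate synthase, at 240 ± 29.8, 109 ± 38.3 and 197 ± 7.67. In Ldb1-KO against Lmo2tg at DN4, 5 of 28 were higher (median 0.38), Rrm2 (0.90, edgeR adjusted p = 0.00254) and Tyms (0.86, edgeR adjusted p = 0.00438) among them. Against wild type, 1 of 28 was lower in Ldb1-KO DN4 and 0 were higher (median -0.37 over the list, 0.03 over all genes). The Lmo2tg effect was more negative at DN4 than at DN2/3 for 15 of 28, and for 11% of all genes.

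Of 16 genes of G2 and mitosis, 16 were higher in DN4 in wild type (median 1.51) and 16 in Ldb1-KO (median 0.96). The Lmo2tg effect was more negative at DN4 than at DN2/3 for 16 of 16, and for 11% of all genes. At DN4, 12 of 16 were lower in Lmo2tg than in wild type. There 6 of 16 were higher in Ldb1-KO than in Lmo2tg, as were 5.85% of all genes. Mki67, the usual marker of dividing cells, stood at 1583 ± 128 CPM in wild-type DN4, 911 ± 237 in Lmo2tg DN4 and 1392 ± 214 in Ldb1-KO DN4. Birc5, which acts in chromosome segregation, stood at 211 ± 19.9, 112 ± 43.1 and 191 ± 2.30 CPM.

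Of the 7 genes of the MuvB complex and its partners, 5 were higher in wild-type DN4 than in DN2/3, and 2 were lower in Lmo2tg than in wild type at DN4, among them the mitotic activator Foxm1 (log2 fold change -0.76, edgeR adjusted p = 0.00598). That count is near the 23.5% of all genes lower there. Lin54, which binds the CHR element, was higher in wild-type DN4 than in DN2/3 (1.11, edgeR adjusted p = 5.916e-05) and not called between Lmo2tg and wild type at DN4 (-0.15, edgeR adjusted p = 0.498). Of 5 genes for turnover of E2F proteins, 5 were higher in wild-type DN4 and 3 were lower in Lmo2tg DN4, among them Ccnf (-1.21, edgeR adjusted p = 6.375e-05) and Skp2 (-0.75, edgeR adjusted p = 0.00301).

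Of 8 G1 cyclins and kinases, 5 were higher and 2 lower in wild-type DN4 than in DN2/3. In Lmo2tg DN4, 4 were lower and 1 higher than in wild type. Ccne1, a cyclin E that E2F induces, stood at 88.1 ± 9.31 CPM in wild-type DN4, 38.0 ± 13.8 in Lmo2tg DN4 and 66.1 ± 4.93 in Ldb1-KO DN4. The other cyclin E gene, Ccne2, was at 43.9 ± 6.09, 24.5 ± 6.86 and 41.3 ± 4.90 CPM. Ccne1 (0.80, edgeR adjusted p = 0.00966) and Ccne2 (0.76, edgeR adjusted p = 0.0102) were higher in Ldb1-KO than in Lmo2tg, and these were the 2 of 8 called higher, beside 2 called lower.

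Inhibitors of the cyclin-dependent kinases, which keep pocket proteins bound to E2F, were described as a list of 7. In Lmo2tg, 6 of 7 were higher and 1 lower than in wild type at DN2/3, where 15.1% of all genes were higher and 14.4% lower. At DN4, 5 were higher and 1 lower, where 28.9% of all genes were higher and 23.5% lower. The lower one was Cdkn1a, at 58.8 ± 9.17 CPM in wild-type DN2/3 and 2.77 ± 1.64 in Lmo2tg DN2/3 (edgeR adjusted p = 1.163e-08). Cdkn1c, at 0.52 ± 0.12 and 2.02 ± 0.53 CPM, was higher (edgeR adjusted p = 9.285e-06).

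The Polycomb partners of E2f6 were described because E2f6 itself was not called. Of 10, 5 were higher and 2 lower in Lmo2tg DN4 than in wild type, where 28.9% of all genes were higher and 23.5% lower, and Yaf2 (1.18, edgeR adjusted p = 2.975e-05) and Cbx3 (0.65, edgeR adjusted p = 0.00675) were among those higher. Of 5 germline genes that E2f6 complexes are known to silence, 3 passed the filter, and 1 was higher and 0 lower in Lmo2tg DN4 than in wild type. The 5 summed to a median of 5.94 CPM in Lmo2tg DN4 (2.90 to 36.4) and 10.5 in wild-type DN4 (8.53 to 16.8). Tuba3a, whose reads could be split with the near-identical Tuba3b, was higher in Lmo2tg DN4 (0.97 ± 0.49 CPM) than in wild type (0.19 ± 0.15 CPM, edgeR adjusted p = 0.00521), and Slc25a31 was listed at 0 in the wild-type DN4 libraries and reached 0.91 CPM in Ldb1-KO DN4. Of 6 listed death genes that E2f1 is known to induce, 5 passed the filter, and 3 were higher and 1 lower in Lmo2tg DN4 than in wild type, where E2f1 was lower. Bbc3 stood at 21.5 ± 8.65 CPM against 4.04 ± 0.87 (edgeR adjusted p = 1.66e-06), and Bcl2l11 at 101 ± 33.1 against 49.4 ± 6.32 (edgeR adjusted p = 2.975e-05).

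Across the 28 libraries, the members with cell-cycle levels varied together. Pearson's r of log2 CPM was 0.96 between E2f2 and E2f8, 0.89 between E2f2 and E2f7 and 0.85 between E2f1 and Tfdp1, while E2f5 reached -0.33 with E2f1. With the group means removed, these were 0.82 for E2f2 and E2f8, 0.53 for E2f2 and E2f7, 0.79 for E2f1 and Tfdp1 and -0.43 for E2f1 and E2f5. These are descriptions over libraries that share group, stage and scaling. Against the summed CPM of the 16 G2 and mitosis genes, r was 0.97 for E2f8, 0.92 for E2f2, 0.89 for Tfdp1, 0.80 for E2f7 and 0.68 for E2f1, and 0.30 for E2f4, 0.27 for E2f6 and -0.03 for E2f5. With the group means removed it was 0.91 for E2f8, 0.88 for Tfdp1, 0.75 for E2f2, 0.65 for E2f1 and 0.64 for E2f6, and 0.52 for E2f7, 0.29 for E2f4 and -0.13 for E2f5. Against the 28 replication genes, Tfdp1 gave 0.97, E2f1 0.90, E2f2 0.89, E2f8 0.89, E2f3 0.81 and E2f7 0.76. E2f4 gave 0.59, E2f6 0.53 and E2f5 -0.17. With the group means removed, Tfdp1 gave 0.955, E2f8 0.89, E2f1 0.86, E2f2 0.83, E2f3 0.76 and E2f6 0.74. E2f4 then gave 0.55, E2f7 0.40 and E2f5 -0.235.

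Within Lmo2tg DN4 the spread of several members went with these sums. The 16 G2 and mitosis genes summed to 2110, 4407, 3343, 5034 and 3478 CPM in replicates 1 to 5, against 5511 to 6215 in wild-type DN4. Replicate 1, lowest in this sum, was lowest for E2f1, E2f3, E2f6, E2f8 and Tfdp1, and replicate 4, highest in the sum, was highest for E2f1, E2f2, E2f3, E2f4, E2f8 and Tfdp1. Other extremes fell elsewhere: E2f2 and E2f4 were lowest in replicate 3, E2f6 was highest in replicate 2, E2f7 ran from replicate 3 (4.07 CPM) to replicate 5 (7.29 CPM), and E2f5 was highest in replicate 2 and lowest in replicate 5.

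**Figure D5:**
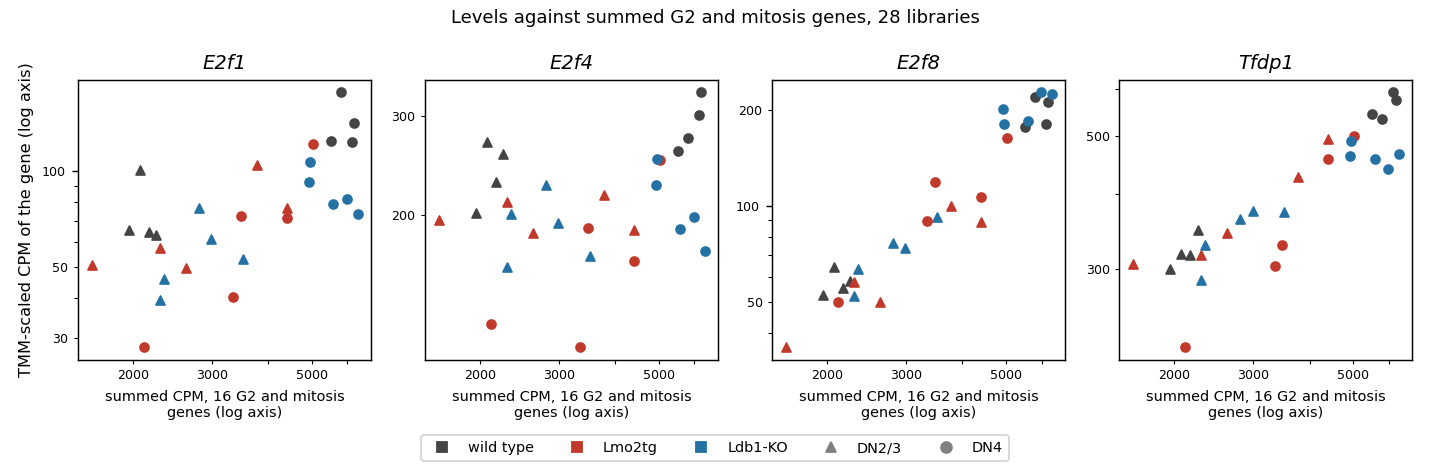
TMM-scaled CPM of E2f1, E2f4, E2f8 and Tfdp1 (y axes, log) against the summed CPM of 16 G2 and mitosis genes (x axes, log) in the 28 libraries, with genotype by colour and stage by shape. E2f8 lies close to a line (r = 0.97), and E2f4 is scattered (r = 0.30).

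The genes with the most similar pattern to each member were taken from 10965 genes by Pearson's r of log2 CPM over the 28 libraries. E2f8 was nearest to Rrm2 (r = 0.99) and to the kinetochore gene Ska3 (0.98). E2f1 was nearest to Tk1, thymidine kinase (0.97), and Chaf1a, a chromatin assembly factor (0.97), and E2f2 to Ccne1 (0.97) and Tcf19 (0.96). E2f3 was nearest to Dna2 (0.94) and Acsl5 (0.93), and Tfdp1 to Suv39h1 (0.97) and Ran (0.97). E2f7 was nearest to Tmem194 (0.92) and D17H6S56E-5 (0.91). E2f4 was nearest to Trmt2a (0.97) and Tmem201 (0.97), and E2f6 to Rnf4 (0.88) and Thumpd1 (0.85). E2f5 had no close match, with Zfp605 at 0.75 and Clpx at 0.72.

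Markers of other cells and stages also differed between groups. Of 6 markers of double-positive and mature thymocytes, 4 were higher in Lmo2tg DN4 than in wild-type DN4, where 28.9% of all genes were. In Ldb1-KO DN4, 5 of the 6 were higher than in wild-type DN4, where 18.2% of all genes were. Between Ldb1-KO and Lmo2tg at DN4, 0 of 6 were called, where 14.6% of all genes were. No member was called between genotypes at DN2/3. There the 6 markers summed to 11.3 to 17 CPM in wild type, 58.4 to 181 in Lmo2tg and 72.5 to 112 in Ldb1-KO. They summed to 1867, 667, 475, 475 and 413 CPM in Lmo2tg DN4 replicates 1 to 5, against 234 to 372 in wild type and 486 to 1833 in Ldb1-KO, with 0 of the markers at 0 in any library. Every transgenic DN4 library lay above wild type, and replicate 1 of Lmo2tg, which had the lowest E2f1, E2f3, E2f8 and Tfdp1, had the highest sum of its group. Replicate 2 of Ldb1-KO DN4 had the highest sum of its group, 1833 CPM, and was next to lowest there for each of these genes. In Ldb1-KO DN4, E2f2, E2f5, E2f6, E2f7 and E2f8 overlapped wild type, while E2f1, E2f3, E2f4 and Tfdp1 lay below it. Of all genes, 33.1% did not overlap there, and only E2f3 and E2f4 were called among the members. The part of these cells in the results was not tested.

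Where 28.9% of all genes were higher in Lmo2tg DN4 than in wild type, 6 of 6 B cell markers were. They summed to 11.6 to 91.2 CPM in Lmo2tg DN4, 10.8 to 13.9 in wild type and 13.1 to 21.2 in Ldb1-KO, with replicate 1 of Lmo2tg highest and Cd79b the most abundant over the 28 libraries. Pax5 was at 0 in every wild-type DN4 library. The 7 myeloid markers, led by Lyz2, summed to at most 10.2 CPM in the DN4 libraries, the 5 dendritic markers, led by Itgax, to at most 5.08 and the 7 erythroid markers, led by Alas2, to at most 28.6. Elane of the myeloid list and Hbb-bs and Hbb-bt of the erythroid list were at 0 in every DN4 library. The 6 NK markers, led by Gzma, summed to 234 to 472 CPM in Lmo2tg DN4 and 367 to 514 in wild-type DN4. The 5 stroma markers, led by Epcam, summed to at most 20.6 CPM in DN4. The 3 gamma-delta T markers in the table, led by Cd163l1, summed to 98.9 to 225 CPM in wild-type DN4, 136 to 532 in Lmo2tg DN4 and 70.7 to 1529 in Ldb1-KO DN4. The part of these cells in the E2f results was not tested.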

How the data were processed

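RNA of sorted thymocytes was measured in 28 libraries, made with a TruSeq V2 kit and read as 101-base pairs, per the labels' protocols. The authors deposited raw counts per gene symbol, and the submitters' processing notes name mm10, STAR 2.5.2a and featureCounts 1.4.6-p3. The sources used here do not give the annotation, strand setting or handling of multiple matches. Library totals were 28.1 to 106.9 M counts, and 0 columns were without a sample.

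The model was edgeR 4.0.16 in R 4.3.3: TMM, filterByExpr by group (14371 genes), robust quasi-likelihood F-tests, two-sided, 6 groups and 12 contrasts, Benjamini-Hochberg over all genes tested, threshold 0.05. Intervals are 95% from the fit's SE. CPM used TMM-scaled totals, RPKM exon lengths of GENCODE M21, and log2 CPM a prior count of 2. The procedure was tested on simulated data. Alternatives were DESeq2 1.42.0, RLE and upper-quartile scaling, plain library totals (for levels only), no filter, compared groups only, replicate blocks and each library left out. The members and gene lists were chosen with earlier results of these data known. Named were the 9 members, Lmo2, Ldb1, Tfdp2, the pocket proteins, Mki67, the 2 genes of each pathway list with the smallest 6-group p, the 2 genes most like each member, and the most abundant marker of each other cell type. Markers at 0 were named after their values were seen. One marker of the double-positive and mature list is not reported here, and the 6 others were used.

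Same-numbered DN2/3 and DN4 libraries of a genotype deviated together from their group means (r between 0.16 and 0.85 in 14 of 14 pairs, 9034 genes), so stage contrasts are also given with these pairs as a block. The pairing comes from the data, not from a label. Between genotypes, 8 of 26 same-numbered pairs passed 0.1 (r between -0.55 and 0.63), and 4 were closest to their own number. Those 4 were Lmo2tg with Ldb1-KO, replicates 1 and 4 in DN2/3 (0.37 and 0.25) and replicates 3 and 4 in DN4 (0.63 and 0.40). No label says what the number pairs there, and a batch shared by transgenic libraries was not tested.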

Additional observations from a re-analysis of the deposited data

Results flagged for a closer look

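E2f1 in wild-type DN2/3 stood at 100.9 CPM in replicate 1, while the other 3 libraries lay between 62.97 and 65.54, a gap that is a large part of the range of the group. Of the groups tested for such a gap, 54 in all, chance marks about 1 in 20. Replicate 1 of wild-type DN4 was also the highest of its group for E2f1.

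The Lmo2tg effect differed between stages, by the edgeR test of the difference itself, for E2f8 (-1.105 on the log2 scale), E2f2 (-0.9389), E2f7 (-0.8725), Tfdp1 (-0.8622) and E2f3 (-0.5111). For these genes the wild-type level was higher in DN4 than in DN2/3, and the Lmo2tg stage change was not called in the model without pairs. The Ldb1-KO effect differed between stages for E2f7 (1.365 on the log2 scale), where stage and the extent of Ldb1 loss cannot be told apart.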

How the results depend on the processing

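No member changed direction past the threshold under the alternatives run, and of the members' results 1876 kept their side of the threshold, 56 gained a call and 30 lost it. The cause was not tested for the counts of members called given here. DN4 against DN2/3 in Lmo2tg, 0 of 9 members, came to 1 with RLE scaling, 1 with the replicate block, 4 with pairs within genotype as the replicate block and 2 with DESeq2. Lmo2tg against wild type at DN2/3 went from 0 to 1 with upper-quartile factors. With only the compared groups in the model, Ldb1-KO against Lmo2tg at DN4 went from 4 to 2, Ldb1-KO against wild type at DN4 from 2 to 5, the stage difference of the Lmo2tg effect from 5 to 3 and that between Ldb1-KO and wild type from 0 to 2. With the pairs as the replicate block the last came to 1 and the stage difference of the Lmo2tg effect to 8. The stage difference of the Ldb1-KO effect, 1, came to 2 with the replicate block, 5 with pairs and 2 with DESeq2. Across genotypes no label says what the replicate number pairs. With it as the replicate block, E2f1 was lower in Ldb1-KO than in wild type at DN4 (-0.76, edgeR adjusted p = 0.0317), Tfdp1 higher in Ldb1-KO than in Lmo2tg (0.39, edgeR adjusted p = 0.0346), and E2f2 differed in the Ldb1-KO effect between stages (0.94, edgeR adjusted p = 0.0441).

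Leaving out each library in turn gave 7 to 8 members for Lmo2tg against wild type at DN4, 3 to 6 for Ldb1-KO against Lmo2tg at DN4 and 1 to 4 for Ldb1-KO against wild type at DN4. It gave 6 for the wild-type stage change, 0 to 2 in Lmo2tg and 3 to 4 in Ldb1-KO, 3 to 7 for the stage difference of the Lmo2tg effect and 1 to 2 for that of the Ldb1-KO effect. The other comparisons stayed at 0.

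Counts over all genes moved by more than 1.5 times with only the compared groups: 4947 in place of 7532 (Lmo2tg against wild type, DN4), 681 in place of 2092 (Ldb1-KO against Lmo2tg, DN4), 3037 in place of 1374 (Ldb1-KO against wild type, DN2/3), 321 in place of 2208 (stage in Lmo2tg), and 2146 in place of 3684, 85 in place of 195 and 1737 in place of 31 for the stage differences of the Lmo2tg effect, the Ldb1-KO effect and Ldb1-KO against wild type. With pairs these 3 were 7106, 1933 and 2811, and the stage counts 5569 in place of 2208 in Lmo2tg and 6934 in place of 4039 in Ldb1-KO. The replicate number as a block gave 2449 for Ldb1-KO against wild type at DN2/3 and 134 for its stage difference, and DESeq2 gave 390 and 284 for the last 2 stage differences. Single libraries left out gave 764 to 880 for Ldb1-KO against wild type at DN2/3 (wild-type replicate 1, 3 or 4 or Ldb1-KO replicate 3), 2855 in place of 4680 at DN4 (wild-type replicate 3), 3450 for the stage in Lmo2tg and 624 for the Ldb1-KO effect (Lmo2tg DN4 replicate 4), 2412 for the Lmo2tg effect (wild-type DN2/3 replicate 2) and 6 to 47 for Ldb1-KO against wild type between stages. E2f5 and E2f7 had the lowest counts and hence the widest counting error.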
